A study of Homo sapiens with 27 samples.

Results

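The 40 genes described here encode DNA repair and damage checkpoint proteins outside mismatch repair. They were chosen by name from 20037 protein-coding genes of the RefSeq table for GRCh38 and cover 2189220 bp, from the 2542 bp of APEX1 to the 146036 bp of ATM. Their roles were homologous recombination in 6 genes (BRCA1, BRCA2, PALB2, RAD50, MRE11, NBN), checkpoint kinases in 4 (ATM, ATR, CHEK1, CHEK2), the Fanconi anaemia pathway in 4 (FANCA, FANCD2, FANCI, FANCM) and base excision or single-strand break repair in 10 (XRCC1, PARP1, LIG1, LIG3, POLB, MPG, APEX1, UNG, OGG1, NTHL1). The others were LIG4 for end joining, 10 nucleotide excision repair genes (ERCC1, ERCC2, ERCC3, ERCC4, ERCC5, ERCC6, ERCC8, XPA, XPC, DDB2), 3 RecQ helicases (BLM, WRN, RECQL4) and 2 genes of direct reversal (ALKBH2, ALKBH3). The method is meant to map O6-methylguanine in the DNA of these genes, and their expression was not measured.

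Temozolomide (TMZ) is an alkylating drug used against glioblastoma, and it places methyl groups on guanine, adenine and other sites of DNA. O6-methylguanine, a minor product, pairs with thymine during replication; the protein MGMT removes the methyl group directly, and unrepaired lesions become toxic through mismatch repair and the strand breaks that follow. The more abundant methylated purines are removed by base excision repair, other alkylated bases are reversed by ALKBH2, which prefers double strands, and ALKBH3, which prefers single strands, and breaks left at replication forks are handled by the Fanconi, recombination and checkpoint proteins listed above.

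LN-229 is a human glioblastoma cell line. Wild type (WT) means its transfection control line here, and MGMT means the MGMT-transfected line. The 8 cell groups were WT or MGMT cells given 1 mM TMZ or 1% DMSO as the solvent control, 1 time or 3 times at intervals of 4 h, with DNA taken 24 h after the first exposure. The ninth group was naked DNA, extracted before it met TMZ: its replicate 1 came from WT cells that had not been transfected, replicate 2 from the WT line and replicate 3 from the MGMT line. Each cell group had 3 biological replicates and naked DNA had 1 library from each of these sources, 27 libraries in all. The SD of naked DNA thus includes differences between its sources. Each genotype was represented by a single transfected line. Cultures of 1 line share their genome, so p-values measure the spread between libraries and not between lines.

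In O6-MeG-seq, fragments that carry the lesion are pulled down with an antibody and a polymerase that stalls at the lesion marks its position. A library is therefore a list of distinct marked positions. Counts below are of positions whose marked base is G and whose deposited score is 30 or more, called G sites. Density is the number of G sites in a gene per 1000000 G sites of the library, written ppm, and ppm per Mb once divided by the gene's length. It measures how G sites were distributed and not how many lesions there were. The libraries held 170292 to 9080016 G sites, of which 138 to 7446 lay in the 40 genes. G made up 67.8% to 70.9% of marked bases in naked DNA, 32.5% to 64.1% in TMZ cells and 19.0% to 43.5% in solvent cells, which met no TMZ. Bases other than G were thus marked in every library, so not every marked position was this lesion. How many of the G sites were lesions was not determined, and those of solvent cells cannot be taken as TMZ lesions. A difference of TMZ and solvent is therefore one between G sites, not between lesions. The upper end of the solvent range was replicate 1 of the MGMT 1x group. That library shared 34.3% of its G sites in the 40 genes with replicate 1 of naked DNA, replicate 1 of the WT 1x solvent group shared 33.3%, and replicate 1 of the MGMT 1x TMZ group shared 10.3%, against 0.322% to 2.99% in the other 21 cell libraries. Whether positions passed from naked DNA into these libraries was not tested. The gene tests and the ends and strand values were repeated without each of the 3 libraries, the gene tests also from positions marked in a single library, and the role and promoter values of solvent cells without both solvent libraries.

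Positions in the 250 bases before a gene start show what was marked. Of the 48 such windows that RefSeq gives for 35 of the genes, 18 overlapped no gene, and these held 1 to 12 positions marked in TMZ cells, with a median of 5. The windows of ERCC3, ERCC6 and FANCD2 held the most and that of ATM, the gene with the lowest density, held 1. The LIG4 stretch is cut to 30 bases and comes from the window with the most marked positions of all 48. Each is printed 5′ to 3′ on the gene's strand, from RefSeq GRCh38.p14. A capital G is a guanine marked in at least 1 TMZ cell library, and a capital C stands opposite a guanine marked on the other strand.

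ERCC3, chr2:127294145-127294394, minus strand: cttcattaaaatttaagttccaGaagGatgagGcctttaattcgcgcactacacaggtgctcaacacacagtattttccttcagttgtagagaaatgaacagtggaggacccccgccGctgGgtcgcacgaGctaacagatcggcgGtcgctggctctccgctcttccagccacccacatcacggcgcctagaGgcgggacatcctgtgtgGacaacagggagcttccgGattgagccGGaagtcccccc

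ERCC6, chr10:49539539-49539788, minus strand: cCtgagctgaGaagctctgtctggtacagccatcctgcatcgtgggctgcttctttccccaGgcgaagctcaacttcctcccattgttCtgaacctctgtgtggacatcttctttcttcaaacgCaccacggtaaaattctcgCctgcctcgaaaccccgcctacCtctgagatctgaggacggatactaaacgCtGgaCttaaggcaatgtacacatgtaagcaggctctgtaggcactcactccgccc

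FANCD2, chr3:10026187-10026436, plus strand: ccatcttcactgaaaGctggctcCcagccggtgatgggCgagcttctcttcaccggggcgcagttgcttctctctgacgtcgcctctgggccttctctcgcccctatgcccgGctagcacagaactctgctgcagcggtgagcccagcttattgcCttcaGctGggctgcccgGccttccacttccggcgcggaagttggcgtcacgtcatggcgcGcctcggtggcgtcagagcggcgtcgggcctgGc

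ATM, chr11:108222817-108223066, plus strand: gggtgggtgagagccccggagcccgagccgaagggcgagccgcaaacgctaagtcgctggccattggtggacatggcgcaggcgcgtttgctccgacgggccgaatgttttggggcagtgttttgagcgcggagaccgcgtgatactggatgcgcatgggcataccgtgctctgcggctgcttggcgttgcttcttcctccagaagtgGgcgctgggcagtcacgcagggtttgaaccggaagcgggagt

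LIG4, chr13:108214988-108215017, minus strand: acgtcagGcgggGGtcgggGgGtcgtcagG

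In the ERCC3 window (the helicase XPB of the excision complex), 12 positions were marked under TMZ, 7 in naked DNA and 0 under solvent. All 12 lay on the gene's strand, which has 65 G against 74 C letters. They came from 8 TMZ libraries, with 4 of them in replicate 2 of the MGMT 3x group. In the window of ERCC6 (CSB, which acts where RNA polymerase stalls), 3 marked positions lay on the gene's strand and 7 on the other. The window of FANCD2, which is ubiquitinated at stalled forks, divided its 10 marks into 7 and 3. The LIG4 window, inside the gene at chr13:108214783-108215032, held 27 positions, all on the gene's strand, where G outnumbered C by 137 to 37; 26 of them followed a purine. LIG4 joins DNA ends. These windows were chosen for their marks, so the counts are descriptions.

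The base before the marked G was read from the same sequences. Over the windows of the 35 genes, 80.8% of 308 G sites from TMZ cells followed a purine (95% Wilson interval 76.1% to 84.8%), as did 80.8% of 198 sites from naked DNA (74.8% to 85.7%). In solvent cells the share was 56.8% of 37 sites (40.9% to 71.3%), or 53.1% of 32 without the replicate 1 libraries of both 1x groups, against 55.9% of all G positions in the windows. Over the windows of all genes the shares were 79.7%, 79.0%, 59.6% and 58.2% in the same order. The TMZ and naked DNA shares were alike, and the solvent share lay near that of all G positions. Intervals here cover counting error only, and the 37 solvent sites limit what can be told.

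Density per length varied more than 10-fold among the 40 genes in naked DNA. Neither these densities nor the ratios of gene ends to bodies below were adjusted for the number of guanines. In ppm per Mb of gene, naked DNA had 90.2 ± 4.19 (SD, n = 3) in ATM and 957 ± 267 in RECQL4. The median was 385 over the 40 genes and 432 over all protein-coding genes, whose 5th and 95th percentiles were 123 and 964. Of the 40 genes, 24 lay below the median of all genes. All 6 recombination genes did, from MRE11 (205 ± 11.2) to RAD50 (387 ± 31.6), with BRCA2, PALB2 and NBN between 352 and 383. Of the checkpoint kinases 3 of 4 did, CHEK2 being the exception at 537 ± 64.2 and ATR, which answers stalled forks, standing at 278 ± 22.9.

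The Fanconi genes ran from the translocase FANCM (284 ± 25.8) to FANCA (618 ± 57.3), with 3 of 4 below the median of all genes. Base excision and break repair genes spread widely, with 4 of 10 below it: PARP1 had 673 ± 14.5, the nick-sealing LIG3 429 ± 38.9, the uracil glycosylase UNG 399 ± 110, and the gap-filling polymerase POLB 329 ± 34.6. Nucleotide excision genes were split 5 and 5. The nucleases ERCC4 (294 ± 27.9) and ERCC5 (283 ± 28.4) and the damage binder XPA (297 ± 51.8) stood low, and the helicase ERCC2 (713 ± 69.9) stood high. DDB2, which finds damage in chromatin, had 482 ± 61.6, and the oxidative demethylase ALKBH3 had 336 ± 59.1 beside 630 ± 119 in ALKBH2.

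ATM, the kinase that signals double-strand breaks, had the lowest mean of the 40 in naked DNA, TMZ cells and solvent cells. It had 12.7, 13.9 and 13.0 ppm in the 3 naked libraries, a median of 13.4 in 12 TMZ libraries (8.70 to 17.3) and a median of 11.0 in 12 solvent libraries (3.62 to 18.2), so all groups overlapped. Its neighbourhood was low too: the 2 Mb on each side had 98.0 ppm per Mb in naked DNA. MRE11, the nuclease of the RAD50 and NBN complex, lies on the same chromosome and was next, with 216 in its flanks. At the other end stood RECQL4, a helicase needed at the start of replication, NTHL1 (822 ± 221), a glycosylase for oxidised pyrimidines, and ERCC3 (788 ± 105).

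**Figure D1:**
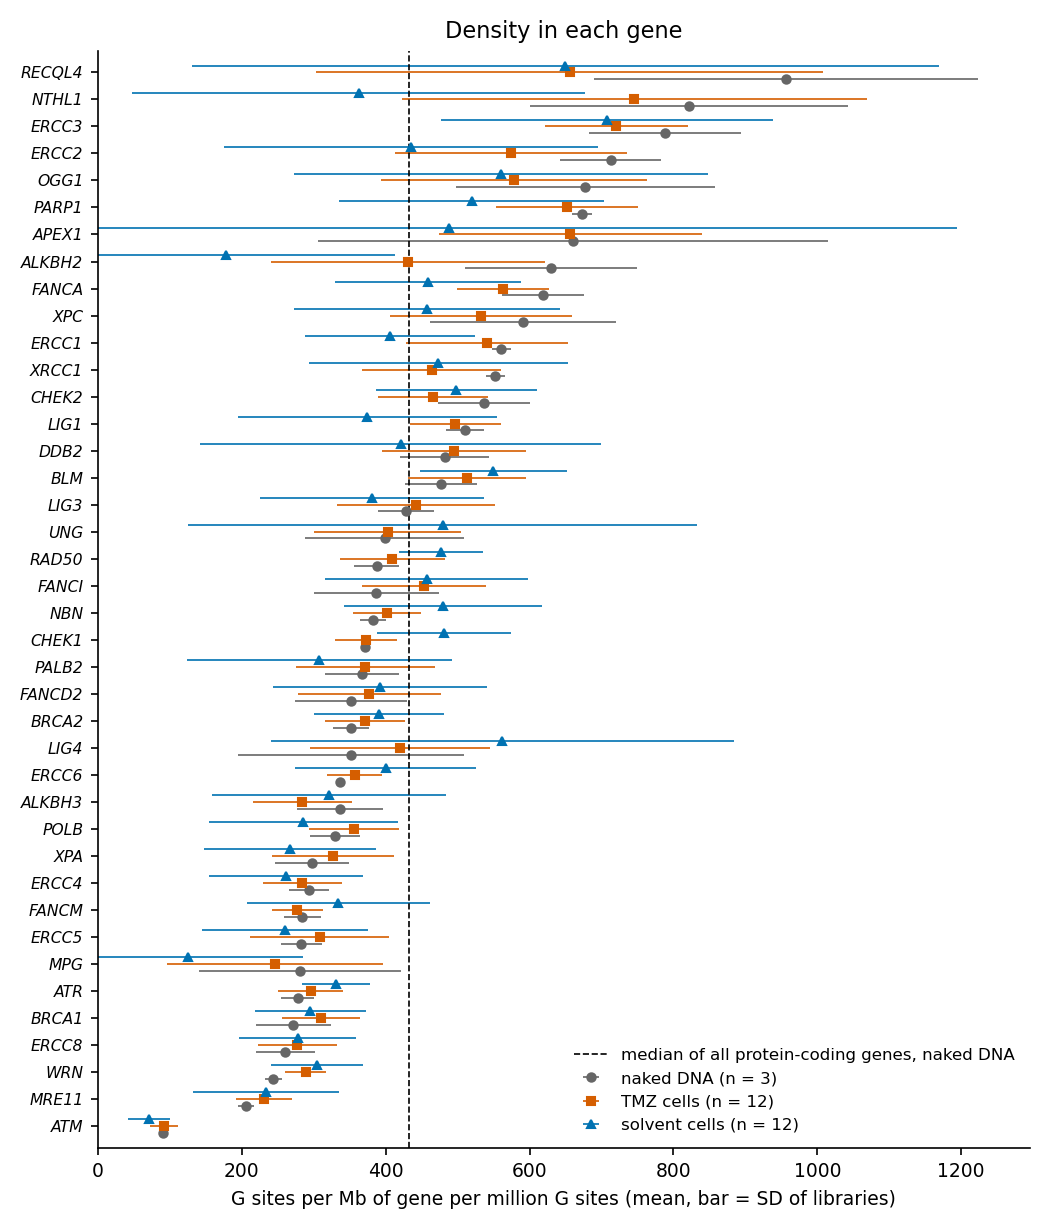
Density in each of the 40 genes, ordered by naked DNA: ppm per Mb of gene (x axis, G sites per Mb per 1000000 G sites) as means with the SD over libraries, for naked DNA (circles, n = 3), TMZ cells (squares, n = 12) and solvent cells (triangles, n = 12). ATM is lowest at 90.2 and RECQL4 highest at 957 in naked DNA, and the dashed line is the median of all protein-coding genes, 432.

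The most G sites over all 27 libraries fell in BLM (3015), the helicase that resolves recombination intermediates, FANCA (2790), a scaffold subunit of the Fanconi core complex, and WRN (2411), the helicase-nuclease of Werner syndrome. In BLM the density in ppm was 42.3 to 52.2 in naked DNA, with medians of 50.2 (30.5 to 63.3) in TMZ cells and 52.7 (38.7 to 79.5) in solvent cells. FANCA had 44.7 to 53.7 in naked DNA, a median of 45.8 (34.3 to 51.1) under TMZ and of 37.2 (10.9 to 51.1) under solvent. The 3 kinds of library overlapped in both genes.

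The fewest sites fell in APEX1 (96), the endonuclease that cuts at abasic sites, MPG (140), the glycosylase that removes the methylated purines TMZ makes, and ALKBH2 (161). These are short genes and their values rest on few positions. APEX1 had 1 to 10 sites per TMZ library, and under solvent it had 0 in 7 of 12 libraries, where 0 sites in a library allows up to 3. MPG had 1 to 26 sites per TMZ library, and ALKBH2 1 to 16. In all, 32 of the 40 genes had a site in every library, and the 8 others lacked one in at least 1 library.

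Pooled over the 40 genes, density did not separate treated cells, solvent cells and naked DNA. It was 814 ± 17.8 ppm in naked DNA (n = 3), 822 ± 29.9 under TMZ (n = 12; lowest 777, median 815, highest 871) and 808 ± 39.9 under solvent (n = 12; lowest 721, median 812, highest 861). Relative to naked DNA this was 0.01 ± 0.05 under TMZ and -0.01 ± 0.07 under solvent on the log2 scale. All groups overlapped. The difference of TMZ and solvent was 0.02 over the 40 genes, less than the spread between libraries, and 0.06 over all protein-coding genes. Scaled to the G sites inside protein-coding genes it was -0.04.

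**Figure D2:**
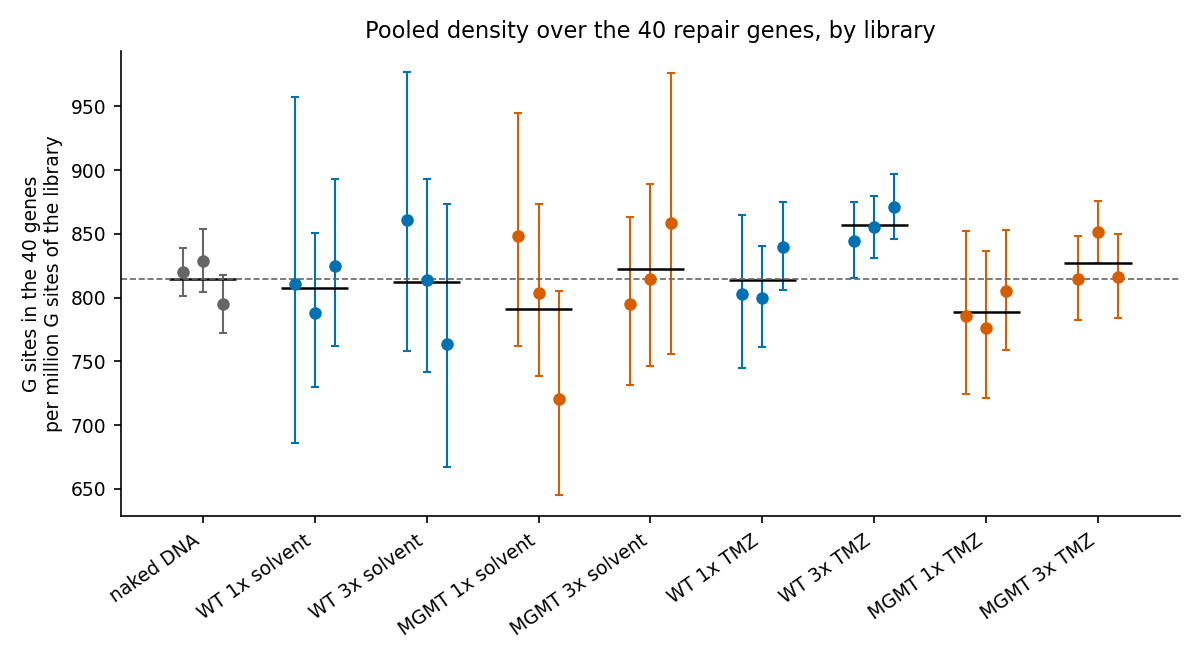
G sites in the 40 genes in ppm of the library's G sites (y axis, not starting at 0), 1 point for each of 27 libraries in 9 groups, with 95% Wilson intervals for counting error, group means as short lines and the naked DNA mean as the dashed line. The groups overlap: the 12 TMZ libraries lie between 777 and 871 and the 12 solvent libraries between 721 and 861.

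By role, the 6 recombination genes under TMZ lay 0.11 ± 0.12 above naked DNA (log2, n = 12) and the 3 RecQ helicases 0.12 ± 0.13. The 10 base excision and break repair genes lay at -0.09 ± 0.16 and the 10 nucleotide excision genes at -0.03 ± 0.12. Fanconi genes had 0.02 ± 0.09 and checkpoint kinases -0.02 ± 0.08. The 2 direct reversal genes had -0.33 ± 0.37, from 7 to 83 sites a library. LIG4 alone had 0.28 ± 0.50 from 2 to 29 sites a library, and its 3 naked libraries spanned -0.63 to 0.67. Under solvent, base excision genes were at -0.35 ± 0.29 and RecQ helicases at 0.21 ± 0.13, and without the replicate 1 libraries of both 1x groups at -0.43 ± 0.24 and 0.22 ± 0.13 (n = 10). In each role the range over the 12 TMZ libraries included the mean of naked DNA. In the 6 MGMT libraries alone it did not for base excision genes (-0.42 to -0.02), nucleotide excision genes (-0.24 to -0.02) and RecQ helicases (0.10 to 0.23), though all of these overlapped the naked libraries. The 6 WT libraries had means of -0.02, 0.07 and 0.08 in the same roles. The naked DNA mean is over 3 libraries, of which only replicate 3 came from the MGMT line. The roles were not set against that library alone. How far the lines differed already in naked DNA is therefore not separated in these role values.

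Which genes differed between TMZ and solvent was asked of each gene in a limma voom fit over 17702 genes, with Benjamini-Hochberg adjustment over all of them and a threshold of 0.05. All 40 genes were tested. Of all genes tested, 10.6% passed, 8.64% higher and 1.99% lower under TMZ. Among the 40, CHEK1 passed and was lower, 1 of 40, and none was higher, so at a minimum score of 30 and with all libraries the share called was below that of all genes. The median log2 difference was 0.02 over the 40 genes, with 22 above 0, and 0.10 over all genes, of which 62.9% were above 0. With library sizes from trimmed means of log ratios (TMM), all genes split into 1017 higher and 762 lower rather than 1530 and 352, the 40 genes had 16 above 0 beside 51.6% of all genes, and CHEK1 was the gene called. Without replicate 2 or 3, 1.28% and 2.68% of all genes passed and none of 39 members tested.

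CHEK1 (chr11:125625136-125681124) encodes the kinase that stops the cell cycle when replication stalls. It had 20.8, 21.1 and 20.5 ppm in naked DNA and a median of 21.2 under TMZ (17.3 to 24.4). Under solvent the median was 28.6 (18.3 to 33.8). TMZ cells thus had the naked DNA level and solvent cells lay higher, with overlap. The log2 difference of TMZ and solvent was -0.47 ± 0.13 (SE; adjusted p = 0.0138 by limma). The call was lost when replicates 1, 2 or 3 were left out, with adjusted p up to 0.369, and held in the other 10 alternatives, among them positions marked in a single library (adjusted p = 0.011) and the fits without replicate 1 of the MGMT or of the WT 1x solvent group (adjusted p = 0.0113 and 0.0126 by limma). CHEK1 overlaps 1 other protein-coding gene, so any sites in the overlap count for both. The length of the overlap was not measured.

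Among genes that missed the threshold, the largest positive difference was that of NTHL1 (0.80 ± 0.29, adjusted p = 0.0678 by limma). LIG1 had 0.54 ± 0.19 (adjusted p = 0.0631), ERCC1 0.47 ± 0.17 (0.0694) and FANCA 0.37 ± 0.13 (0.0601). LIG1 seals nicks in replicated DNA, and ERCC1 is the partner of the nuclease ERCC4. Without the MGMT 1x solvent library that stood apart, NTHL1, LIG1, FANCA and ERCC2 passed as higher, which with CHEK1 made 5 of 40, and 14.3% of all genes passed (11.5% higher, 2.81% lower). With no minimum score 6 of 40 passed as higher, the same 4 with ERCC1 and PARP1, beside 14.8% of all genes. With CHEK1 that made 7 of 40, and 17.3% of all genes passed in either direction (2.44% lower), so in both fits the share of the 40 genes was near that of all. Without replicate 1 of the WT 1x solvent group, NTHL1 passed beside CHEK1 (adjusted p = 0.0415 by limma), 2 of 40, and 11.9% of all genes passed (9.79% higher, 2.07% lower). Without replicate 1 of the MGMT 1x TMZ group, ERCC1 passed beside CHEK1 (adjusted p = 0.034 by limma), and 8.37% of all genes passed (6.86% higher, 1.51% lower). Without replicate 1 of every group, NTHL1 and ERCC1 passed as higher, and 9.49% of all genes passed (7.92% higher, 1.57% lower). The difference correlated with log2 naked DNA density at Pearson r 0.34 (Spearman 0.39) across the 40 genes and 0.49 (0.52) across the 17702. Genes share libraries and are not independent replicates.

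The next comparison was between the cell lines, which differ in whether the lesion can be reversed by MGMT. Of all genes tested, 6.52% differed between MGMT and WT cells under TMZ, 4.07% higher and 2.46% lower in MGMT. Among the 40, BRCA1 and FANCI were higher and OGG1 and XPC were lower, 4 of 40, a share near that of all genes. These counts moved with the model and the libraries: 1.06% of all genes passed by limma-trend, 1.63% without replicate 2 and 2.92% without replicate 3, and in each of these no member passed. Without replicate 1 of the MGMT 1x TMZ group, BRCA1 and OGG1 passed, 2 of 40, and 5.1% of all genes (3.12% higher, 1.98% lower). The median log2 difference was -0.09 over the 40, with 14 above 0, and -0.03 over all genes, of which 45.6% were above 0. The libraries of MGMT and WT did not overlap in BRCA1 and XPC and overlapped in the other 38 genes; over all genes tested 4.86% did not overlap (2.9% higher and 1.95% lower in MGMT), a share near that of 2 of 40. Pooled over the 40 genes, MGMT cells lay 0.05 below WT under TMZ on the log2 scale (-0.05). They were lower in 6 of 6 pairs, and the ranges overlapped. Over all genes the difference was -0.01, and MGMT cells were lower in each of these pairs too. In replicate 2 after 1 exposure the lines were nearly equal there. Under solvent the pooled difference was -0.0074. Taken relative to naked DNA of the same line, 1 library each, it was 0.013 under TMZ and 0.053 under solvent.

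BRCA1 (chr17:43044295-43170327) encodes a recombination protein that acts with PALB2 and BRCA2 at broken DNA. In WT cells under TMZ it had 34.0, 31.0 and 30.6 ppm after 1 exposure and 32.9, 37.6 and 33.0 after 3. In MGMT cells it had 49.8, 41.0 and 47.5 after 1 exposure and 42.5, 47.3 and 41.0 after 3. Every MGMT library lay above every WT library. The difference was 0.45 ± 0.12 (log2 ± SE, adjusted p = 0.00942 by limma), and the call was lost in 3 of 13 alternatives, all with the same direction: without replicate 2, without replicate 3 and by limma-trend (adjusted p from 0.00706 to 0.246 over the 13).

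In the same gene naked DNA had 30.6 in replicate 1 and 30.2 in replicate 2, from WT cells, and 41.9 in replicate 3, from the MGMT line. That is 0.47 on the log2 scale for replicate 3 over 2, with a 95% interval of 0.18 to 0.77 for counting error. Naked DNA met TMZ outside the cell, and each line gave it 1 library. The solvent libraries gave 0.43 ± 0.23 (adjusted p = 0.564 by limma), with medians of 39.6 in MGMT and 31.5 in WT cells and overlapping ranges. The 2 Mb on each side of BRCA1, without the gene, differed by 0.43 under TMZ, 0.45 under solvent and 0.53 in naked DNA.

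FANCI (chr15:89243979-89317259), the partner that FANCD2 is clamped with on damaged DNA, had a median of 28.1 in WT cells under TMZ (24.6 to 31.2) and 37.8 in MGMT cells (31.0 to 45.4). The ranges overlapped at their edge. The difference was 0.42 ± 0.13 (adjusted p = 0.045 by limma) and was lost in 9 of 13 alternatives, with the same direction in all. Among these were the fit that paired libraries by replicate number within exposure number (adjusted p = 0.0669 by limma) and the fit without replicate 1 of the MGMT 1x TMZ group (0.39, adjusted p = 0.116). Naked DNA had 26.8, 22.96 and 35.4, the last from the MGMT line, and its flanks differed by 0.23 under TMZ and 0.17 in naked DNA. Under solvent the gene's difference was 0.01 ± 0.25 and that of its flanks 0.11. FANCI overlaps 1 other protein-coding gene.

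Both genes called lower lie on chromosome 3, as does FANCD2 between them. OGG1 (chr3:9749952-9791070) encodes the glycosylase for 8-oxoguanine and overlaps 2 other protein-coding genes. Its median was 29.3 in WT cells under TMZ (18.7 to 34.98) and 19.7 in MGMT cells (8.86 to 29.6), a difference of -0.62 ± 0.19 (adjusted p = 0.0408 by limma) with overlap. The call was lost in 5 of 13 alternatives, with adjusted p up to 0.414 by limma. Solvent cells had medians of 28.1 in WT and 13.9 in MGMT and did not overlap, with a difference of -0.96 ± 0.36 that missed the threshold over all genes (adjusted p = 0.387). How many of all genes did not overlap under solvent was not counted. Naked DNA had 32.9 and 31.3 in the WT replicates and 19.3 in that of the MGMT line.

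XPC (chr3:14145147-14178601) encodes the damage sensor of global genome nucleotide excision repair. WT cells under TMZ had 19.9, 20.7 and 22.1 ppm after 1 exposure and 23.5, 21.1 and 22.3 after 3, while MGMT cells had 13.5, 13.3 and 16.5, then 16.0, 13.4 and 11.6. No library overlapped. The difference was -0.60 ± 0.18 (adjusted p = 0.0268 by limma), lost in 6 of 13 alternatives, among them positions marked in a single library and the fit without replicate 1 of the MGMT 1x TMZ group (adjusted p = 0.0679). Over the 13 the difference stayed between -0.65 and -0.58. Naked DNA had 21.5, 22.96 and 14.8, again lowest in the MGMT line. Under solvent the difference was -0.07 ± 0.34, from 1 to 20 sites per library.

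FANCD2 (chr3:10026437-10101932) missed the threshold at -0.50 ± 0.16 (adjusted p = 0.0506 by limma) and passed it in 5 of 13 alternatives. Deviations from group means correlated at 0.10 to 0.49 between same-numbered WT and MGMT libraries under TMZ, and at -0.37 to 0.24 between differently numbered ones. With the number as a block over all cell libraries, solvent included, FANCD2 passed (adjusted p = 0.0339 by limma). This block was picked from the same data, so the pass is a description. That fit called 5 of the 39 members it tested and 6.99% of all genes (4.4% higher, 2.59% lower). With the block within exposure number FANCD2 passed too (adjusted p = 0.0228 by limma), as 1 of 4 members called of 39, beside 5.75% of all genes (3.51% higher, 2.24% lower). Its medians were 34.2 in WT cells under TMZ (24.3 to 41.0) and 23.3 in MGMT cells (16.2 to 27.7), and naked DNA had 27.3, 32.1 and 20.3. The flanks of OGG1, FANCD2 and XPC differed by -0.49, -0.49 and -0.49 under TMZ and by -0.43, -0.43 and -0.46 in naked DNA. Under solvent these flanks differed by -0.43, -0.45 and -0.41, and FANCD2 itself by -0.48. The flanks of OGG1 and FANCD2 overlap each other. ERCC8 (-0.44 ± 0.15, adjusted p = 0.0784), which acts with ERCC6 at stalled polymerases, and MPG (-1.01 ± 0.36, adjusted p = 0.0852) missed the threshold as well. From positions marked in a single library MPG passed as lower (-1.34, adjusted p = 0.0332 by limma). That fit called 3 of 39 members and 916 of 17478 genes (576 higher, 340 lower). MPG had 1 to 7 sites per MGMT library, and 20 and 8 in naked replicates 2 and 3.

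**Figure D3:**
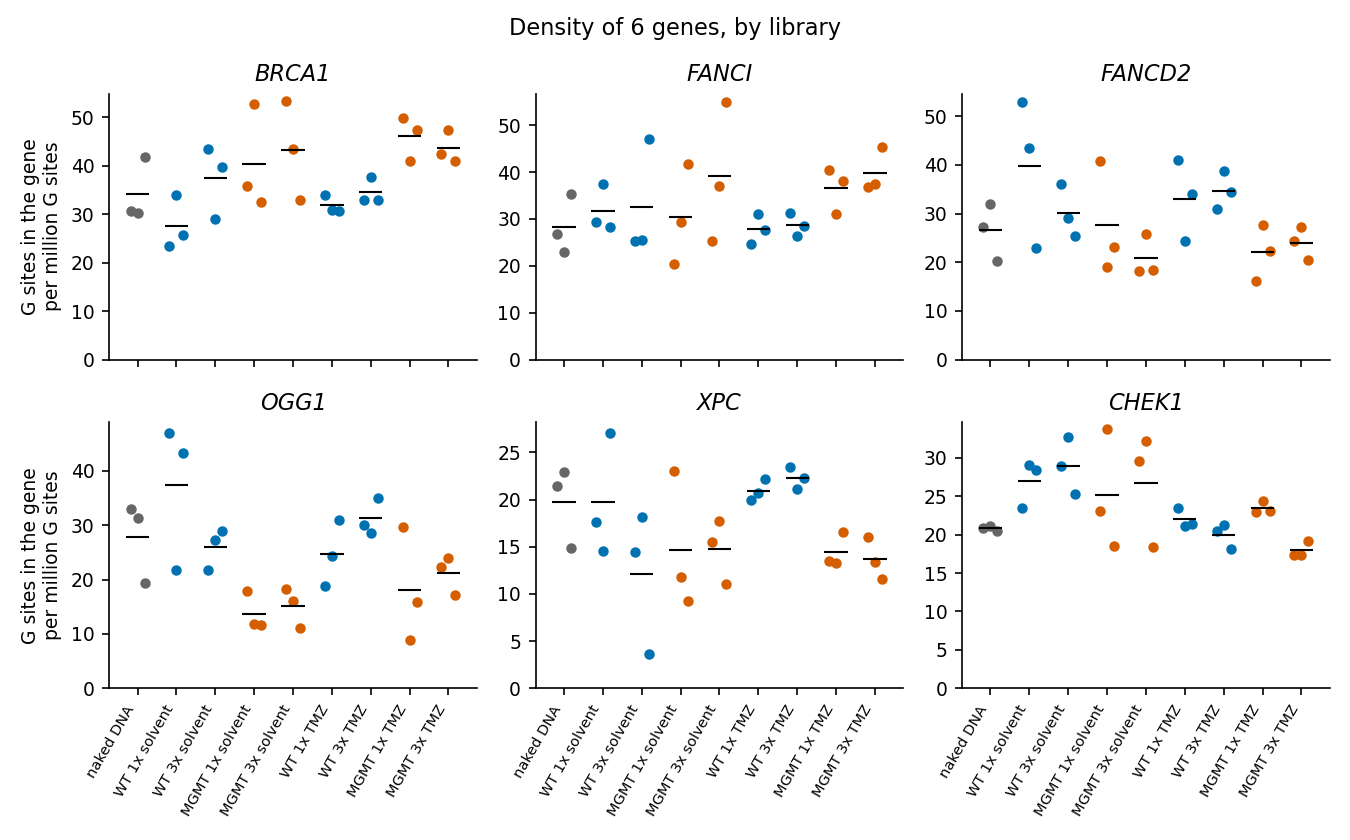
G sites in ppm of the library's G sites (y axis) in BRCA1, FANCI, FANCD2, OGG1, XPC and CHEK1, 1 point for each of 27 libraries, with group means as short lines and the naked DNA replicates in order from 1 to 3. In BRCA1 the MGMT TMZ libraries (41.0 to 49.8) lie above the WT ones (30.6 to 37.6), in XPC they lie below (11.6 to 16.5 against 19.9 to 23.5), and the third naked DNA point, from the MGMT line, stands on the same side.

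Across the 40 genes, the difference between the lines under TMZ ran with the difference of their naked DNA in the flanking DNA (Pearson r 0.78, Spearman 0.74, n = 40 genes). With naked DNA of the gene itself r was 0.60 (Spearman 0.38), and 25 of 40 genes had the same sign; over all 17702 genes that r was 0.40 (0.41). The difference of the genes between the lines under solvent, from few sites per library, had r 0.27 (Spearman 0.14) with the naked DNA flanks. The flanks under TMZ and in naked DNA had r 0.96 (Spearman 0.81). These are descriptions: neighbouring genes share flanks, all genes share libraries, and each line's naked DNA was a single library. In the genes called, the difference of the gene beyond its flanks was 0.02 in BRCA1, 0.19 in FANCI, -0.14 in OGG1 and -0.12 in XPC. Over the other 36 members it ran from -0.74 in MPG to 0.45 in the nuclease ERCC5. Chosen after their values were seen, PARP1, the sensor of single-strand breaks, had flanks of 0.25 under TMZ and 0.27 in naked DNA beside 0.29 ± 0.12 in the gene, and CHEK2 had flanks of -0.22 and -0.22 beside -0.28 ± 0.14. Whether the lines differ in the number of copies of these segments was not tested.

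**Figure D4:**
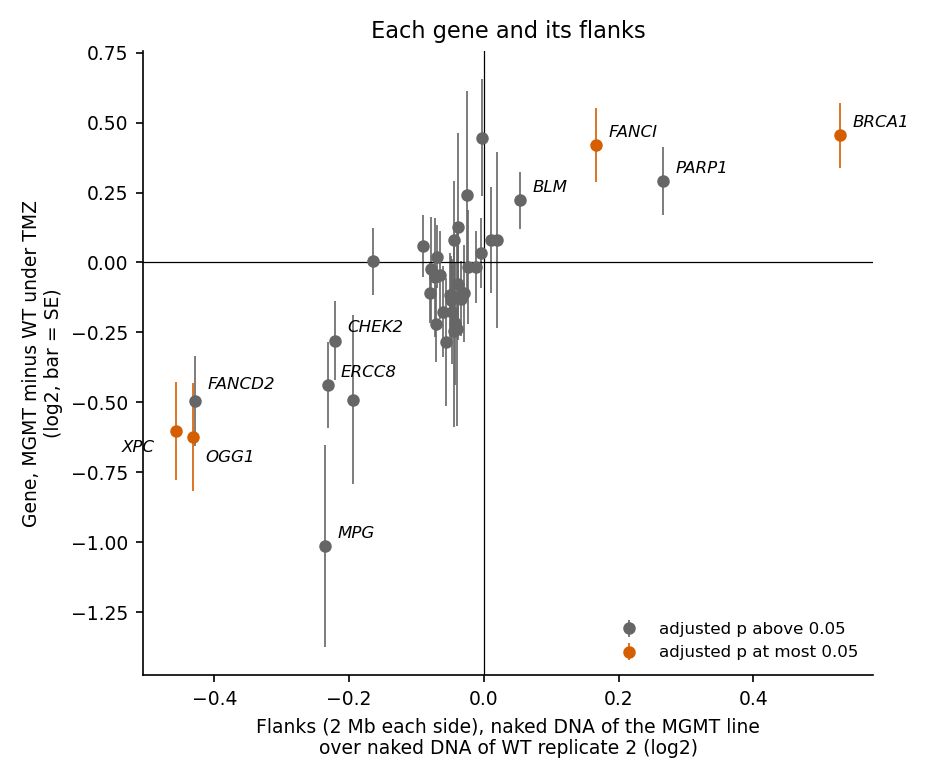
Each point is 1 of the 40 genes: the log2 difference between the lines (MGMT minus WT) in the gene's TMZ density, with its SE (y axis), against the log2 ratio of naked DNA from the MGMT line (replicate 3) over naked DNA from the WT line (replicate 2) in the 2 Mb on each side of the gene (x axis). BRCA1 lies at the upper right (0.53, 0.45), and OGG1, XPC and FANCD2 at the lower left.

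Whether the genotype changed what TMZ did was tested as an interaction. Of all genes tested 0.00565% passed, and of the 40 none did; 2 had an unadjusted p under 0.05, APEX1 and MPG, both among the genes with the fewest sites. Under solvent 0.0113% of all genes differed between the lines and none of the 40, with 3 under an unadjusted 0.05 (APEX1, OGG1, RECQL4). By limma-trend, and by the fit with replicate number as a block within exposure number, OGG1 passed there as lower (adjusted p = 0.00943 and 0.0399), 1 of 40 and 1 of 39 members tested. Limma-trend called 3.01% of all genes (1.62% higher and 1.38% lower) and the block fit 1.56% (0.84% higher and 0.722% lower), so the count under solvent depends on the model. The solvent libraries held few sites, which limits both tests.

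After 3 exposures the pooled density was higher than after 1 by 0.07 on the log2 scale (0.03 over all genes). It was higher in 6 of 6 same-numbered pairs, though replicate numbers were not taken to pair libraries of 1 and 3 exposures. Over both lines the ranges overlapped, and within each line they did not. All genes, on the log2 scale relative to naked DNA, did not overlap within WT cells either. There they had at most -0.00601 after 1 exposure and at least -0.00303 after 3. Within MGMT cells all genes overlapped: replicate 1 had -0.00849 after 1 exposure and -0.0137 after 3. That was the only same-numbered pair in which all genes did not rise. G made up 32.5% to 52.5% of marked bases after 1 TMZ exposure and 52.5% to 64.1% after 3. WT cells had 803, 800 and 839 ppm after 1 exposure and 845, 855 and 871 after 3. MGMT cells had 785, 777 and 805, then 815, 851 and 816. With no minimum score the difference was 0.17. No single gene passed among the 17702 (0%, with 1548 under an unadjusted p of 0.05; with no minimum score 1.06%, 194 genes, and no member), nor among the 40, where 3 had an unadjusted p under 0.05: RECQL4, DDB2 and CHEK1. RECQL4 had 1.04 ± 0.35 (adjusted p = 0.391) and CHEK1 -0.27 ± 0.13 (adjusted p = 0.55) by limma. In 29 of 40 genes the difference was above 0, against 62.3% of all genes, and with TMM sizes in 21 of 40, against 49.4%.

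Against naked DNA, 0.706% of all genes differed in TMZ cells, and none of the 40 (7 with an unadjusted p under 0.05). With TMM sizes 4 genes passed, all lower, in place of 58 higher and 67 lower. The 6 recombination genes had differences from 0.0045 (PALB2) to 0.21 (BRCA1), and none passed. MGMT libraries made up a larger share of TMZ cells than of naked DNA, and BRCA1 was higher in the MGMT line in both. That mix of lines was not adjusted for. The smallest p belonged to WRN and XRCC1. WRN had 36.7, 33.4 and 34.0 ppm in naked DNA and a median of 42.1 under TMZ (31.0 to 46.1), a difference of 0.24 ± 0.09 (adjusted p = 0.182 by limma). XRCC1, the scaffold of single-strand break repair, had 17.8, 18.2 and 17.3 in naked DNA and a median of 15.2 under TMZ (9.35 to 21.1), a difference of -0.29 ± 0.12 (adjusted p = 0.3). Both ranges overlapped naked DNA. Leaving out replicate 3, the naked DNA of the MGMT line included, brought OGG1 past the threshold as lower (-0.53, adjusted p = 0.0397 by limma), 1 of 39 members tested, where 1.82% of all genes passed (0.913% higher, 0.902% lower).

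The first and last 1 kb of the 40 genes had a log2 ratio of ends to bodies of 0.66 ± 0.05 in naked DNA (n = 3, 938 end sites), 0.33 ± 0.24 under TMZ (n = 12, 1378 end sites) and -0.11 ± 0.60 under solvent (n = 12, 172 end sites). All protein-coding genes had 0.64, 0.50 and 0.07 in the same order. TMZ exceeded solvent by 0.44 in the 40 genes (0.25 without replicate 3, and 0.51 and 0.40 without replicate 1 of the MGMT and of the WT 1x solvent group), and by 0.43 in all genes. MGMT and WT differed by -0.11 under TMZ, above 0 in 2 of 6 pairs, and by -0.03 without replicate 3. With 2 to 25 end sites per solvent library, the repair genes alone limit this comparison.

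Starts and far ends were then separated. In the 35 genes with a strand in the table, the start had 0.93 ± 0.12 in naked DNA and 0.57 ± 0.29 under TMZ, and the far end had 0.19 ± 0.13 and -0.07 ± 0.40. In 1-kb steps, naked DNA reached 747 ± 76.0 ppm per Mb just before the start and 711 ± 82.0 just after it, against 359 to 478 in the other steps from 10 kb before to 20 kb inside. TMZ cells had 536 ± 90.3 and 561 ± 129, and solvent cells 404 ± 279 and 401 ± 220. In the step before the start TMZ cells were below naked DNA by more in the repair genes than in all genes, where the values were 540 ± 52.7 and 603 ± 36.5; that contrast was not tested.

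**Figure D5:**
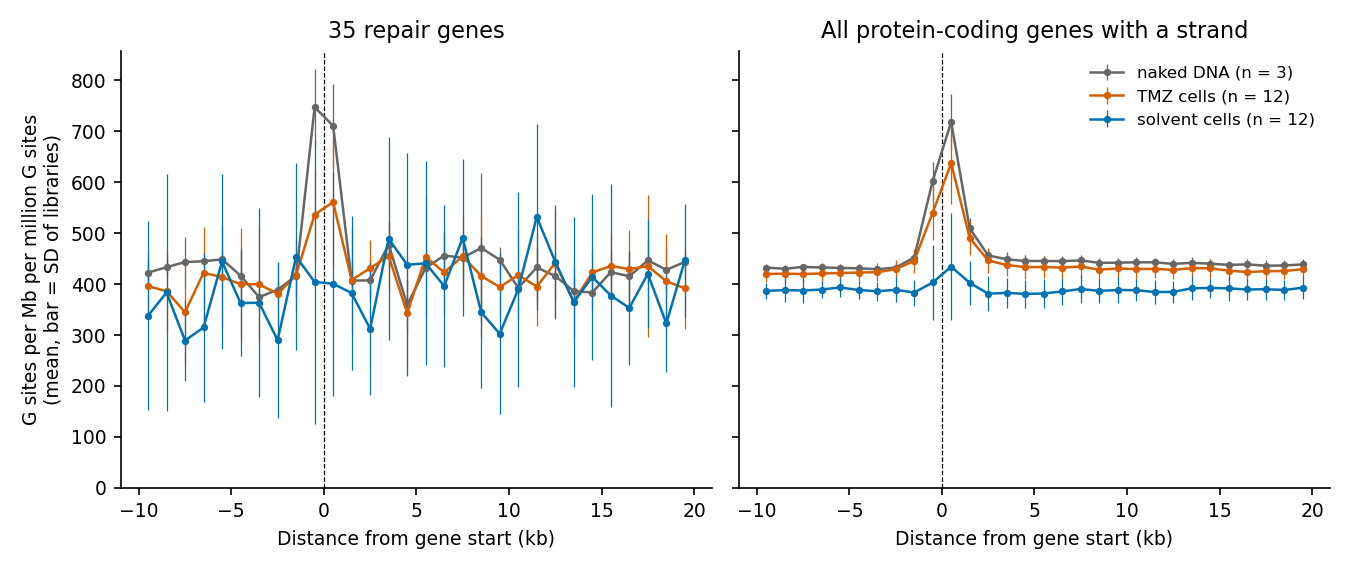
G sites in ppm per Mb (y axis, mean with SD over libraries) in 1-kb steps by distance from the gene start (x axis, negative before the start), for 35 repair genes (left) and all 15843 protein-coding genes with a strand (right). Naked DNA peaks at 747 before the start in the repair genes, TMZ cells reach 561 after it, and solvent cells show no peak beyond their spread on the left.

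Sites lay slightly more often on the coding strand. The coding strand held 53.8% ± 0.25 of G sites in naked DNA in the 35 genes, 54.0% ± 1.31 under TMZ and 52.3% ± 2.86 under solvent, and in all genes 52.9%, 53.6% and 51.8%. The 35 genes differed by 1.72 percentage points between TMZ and solvent (1.91 and 1.47 without the same libraries), and by -0.37 between MGMT and WT under TMZ, above 0 in 3 of 6 pairs (-0.10 without replicate 1, and -0.73 without that of the MGMT 1x TMZ group alone). Single genes ranged widely, and those named next were picked after their values were seen. LIG4 had 70.1% of 167 sites on the coding strand under TMZ (Wilson interval 62.7% to 76.5%) and 65.3% of 72 in naked DNA. NTHL1 had 67.5% of 243 (61.4% to 73.1%) and 56.0% of 134, and XPC 62.0% of 634 (58.1% to 65.7%) and 54.6% of 405. APEX1 had 30.4% of 56 (19.9% to 43.3%) and 58.1% of 31. BLM, with 47.7% of 1739 (45.3% to 50.0%), and ERCC8, with 48.5% of 789 (45.1% to 52.0%), stood at or below parity. Differences between TMZ and naked DNA in single genes were not tested.

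Few positions recurred. The 50056 G sites fell on 46568 distinct positions, of which 43397 were marked in 1 library, 2917 in 2 and 254 in 3 or more, with 8 libraries as the most. Among 57 other genes of these pathways, counted for comparison, 55 were tested: of those, 5 were higher under TMZ than solvent and 0 lower, 1 was higher in MGMT than WT cells under TMZ, and none passed in the other comparisons. Of all genes, 8.64% were higher under TMZ, near the share of 5 of 55, and 4.07% were higher in MGMT cells, above that of 1 of 55.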

How the data were processed

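O6-MeG-seq lists of marked positions were used for 27 libraries, 1 file each, in 9 groups of 3. Per the labels' protocols, sheared DNA with adapters was enriched by immunoprecipitation of O6-methylguanine, positions were marked by polymerase stalling, and subtractive hybridisation and indexing followed. The submitters' processing notes name FastQC 0.11.9, Trimmomatic 0.38 and 0.39, cutadapt, Bowtie2 2.3.5.1, GATK 4.2.0.0, SAMtools 1.12, bedtools 2.29.2 and the build GRCh38, without their roles. The score that the authors deposited with each position runs from 0 to 42; its meaning is not given in the sources used here, and it served only as a minimum of 30. Positions were counted from 0 in the files and are given from 1.

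G sites on chromosomes 1 to 22, X and Y were counted inside protein-coding genes of the RefSeq GRCh38.p14 table and scaled to the library's G sites. The 17702 of 20037 genes that reached 10 sites in 3 or more libraries were fitted with limma 3.58.1 (voom, 9 group means, 27 libraries) in R 4.3.3, with a Benjamini-Hochberg threshold of 0.05. In simulated data with 2-fold changes, 79.0% of changed genes were recovered for TMZ minus solvent, and 22 of 176 calls were false, more than the threshold allows. For MGMT minus WT under TMZ 78.2% were recovered (4 of 158 calls false), and against naked DNA 86.4% (9 of 180). Smaller changes were not simulated. Pooled values, ends, flanks and strands were computed in Python 3.11.15 with pandas 2.3.3 and carry no test. Wilson intervals are at 95% and cover counting error only, not the spread between libraries. Libraries of 170292 to 9080016 G sites set the precision, lowest in solvent cells.

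Replicate numbers were taken to pair WT and MGMT libraries under TMZ only. There, deviations from group means over 2754 bins of 1 Mb correlated above 0.1 in 6 of 6 same-numbered pairs (0.10 to 0.49). Differently numbered pairs ran from -0.37 to 0.24, so some of them passed 0.1 too. The pairing comes from these data, not from the labels, and the block fits held the solvent libraries as well.

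The members, the lists and the tests were chosen with earlier results of these data known. Genes are described in full if they had the 3 highest or 3 lowest site totals, passed a threshold, or had the 2 smallest p-values where none passed; others are given by role. Alternatives were no minimum score, positions marked in 1 library only, TMM sizes, limma-trend, no filter, a replicate block, other denominators, 2 kb ends and each replicate left out. Leaving out replicate 1 of the MGMT or the WT 1x solvent group, or both, or of the MGMT 1x TMZ group, and naked DNA of the same line as reference, were added after the data had been seen.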

Additional observations from a re-analysis of the deposited data

How the results depend on the processing

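Of 89 alternatives for the pooled, end and strand values, 83 moved by less than the spread between libraries. Not all of them could have moved. A replicate block leaves differences of pooled means unchanged, and leaving out a library cannot move a comparison that does not hold it. With no minimum score the difference of 3 and 1 exposures was 0.17, that of TMZ cells and naked DNA -0.047, and naked DNA ends over bodies 0.60 (0.48 with 2 kb ends). Relative to naked DNA of the same line, MGMT minus WT under TMZ was 0.013 and under solvent 0.053; with the untransfected WT library averaged into the WT reference these were 0.0053 and 0.046. Without 1 replicate at a time the pooled differences ran from -0.0011 to 0.05 (TMZ minus solvent), -0.06 to -0.03 (MGMT minus WT under TMZ), -0.02 to 0.001 (under solvent), 0.05 to 0.09 (exposures) and -0.02 to 0.03 (against naked DNA), ends from 0.25 to 0.56, -0.16 to -0.03 and 0.64 to 0.69 (TMZ minus solvent, MGMT minus WT, naked DNA), and coding strand shares from 1.51 to 1.97 (1.47 without replicate 1 of the WT 1x solvent group alone) and -0.57 to -0.10 points (-0.73 without replicate 1 of the MGMT 1x TMZ group alone).

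Genes called between TMZ and solvent numbered 3173 with no minimum score and 3167 with no filter, where more genes were tested, and 221 (without replicate 2) to 2528 (without the MGMT 1x solvent library that stood apart) when libraries were left out. With no filter they split into 1738 higher and 1429 lower of 19642 genes, against 1530 and 352 of 17702 in the main fit. Members called were 7 with no minimum score and 0 to 5 with libraries left out. Between MGMT and WT under TMZ, limma-trend called 188 genes and 0 members, no minimum score and no filter 2 members each, and left-out libraries 280 (without replicate 2) to 1255 genes and 0 to 5 members. Positions of 1 library called 3 of 39 members there: BRCA1, OGG1 and MPG. Under solvent the count of genes was 1 with no minimum score or positions of 1 library, 7 with TMM sizes, 532 with limma-trend, 0 with no filter and 0 to 5 with libraries left out; limma-trend and the block within exposure number each called 1 member, OGG1. The interaction called 0 genes with positions of 1 library and with limma-trend, and 0 to 1 with libraries left out. The exposure comparison called 194 genes with no minimum score, 1 with positions of 1 library and 0 to 18 with libraries left out. Against naked DNA, TMM sizes called 4, limma-trend 0, and left-out libraries 0 (without replicate 2) to 316 genes (without replicate 3), with 0 to 1 member. The cause of these shifts was not tested.

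Each group holds each replicate number once, so a block cannot move the pooled differences of 0.02, -0.05, -0.0074 and 0.07. With replicate number as a block, genes called under solvent rose to 157 (266 within exposure number). Members called were 1 of 39 tested for TMZ against solvent, beside 1680 of 17029 genes, and 5 of 39 for MGMT against WT, beside 1190 genes, FANCD2 added. The block changed the FANCD2 call and, within exposure number, the FANCI call (adjusted p = 0.0669 by limma), and no other member's call between MGMT and WT under TMZ. Elsewhere the numbers were not taken as pairing libraries: correlations passed 0.1 in 2 of 6 genotype pairs under solvent, 6 of 12 treatment pairs and 2 of 6 exposure pairs. Of 65 alternatives for the 5 called comparisons of single genes, 39 kept the call, 26 lost it and 0 reversed. Depth limits solvent libraries most.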
